A study of Mus musculus with 4 samples.

Results

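The 10 genes of eicosanoid signalling described here were followed across dendritic cells (DCs) with and without the microRNA miR-142. They are the prostaglandin E2 receptor genes Ptger1, Ptger2, Ptger3 and Ptger4, the prostacyclin receptor gene Ptgir, the cyclooxygenase genes Ptgs1 and Ptgs2, the prostaglandin E synthase gene Ptges, the 5-lipoxygenase gene Alox5 and the gene of its activating protein, Alox5ap. The genes were chosen by name, and a gene with several probe sets was to be read on the one selected on the highest mean value over the 4 arrays. Of the 10 genes, 9 had a probe set with a single gene symbol, out of 19938 such genes in all, and each of the 9 had 1 probe set, so that no choice by level was made. Ptgs1 was not analysed here. This list and the lists of other pathway genes were drawn up with earlier results of these arrays known, among them the genotype difference of Ptger3. The differences and counts of the listed genes are therefore no independent evidence about the pathway.

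Each group was 1 Affymetrix array hybridised with material from total RNA of sorted cells. The groups were miR-142-/- (ko) CD8-equivalent DCs, ko CD4-equivalent DCs, miR-142+/+ (wt) CD8-equivalent DCs and wt CD4-equivalent DCs. All 4 came from bone marrow of mice on the C57BL/6 background, grown for 8 days with the cytokine Flt3-L at 200 ng/ml, which supports the development of DCs. CD8-equivalent DCs were sorted as B220- CD11c+ CD172- CD24+ CD11blow cells and CD4-equivalent DCs as B220- CD11c+ CD172+ CD24low CD11b+ cells. The labels do not give the age, sex or number of mice behind an array, how the deletion was made, or whether the 2 subsets of one genotype were sorted from a single culture. Values are RMA summaries on the log2 scale, and a difference of 1 between 2 arrays is 2-fold. With 1 array in each group, a difference between 2 arrays has no replicate check and no p-value, and precision is limited by there being only 4 arrays.

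Eicosanoids are lipid mediators made from arachidonic acid, which phospholipases release from membranes. Cyclooxygenases (Ptgs1, Ptgs2) turn it into an endoperoxide that terminal synthases, such as Ptges, convert to individual prostaglandins, while 5-lipoxygenase (Alox5), with its partner protein (Alox5ap), starts the synthesis of leukotrienes. Prostaglandin E2 acts on the receptors EP1 to EP4: EP2 and EP4 raise cAMP through Gs, EP3 mainly lowers it through Gi, and EP1 raises calcium. In DCs prostaglandin E2 is known to influence maturation, cytokine output and migration, and leukotrienes to influence migration.

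The mature products of the deleted microRNA gene, Mir142, are shown with the seed, bases 2 to 8 from the 5′ end, in capitals, because the seed is the stretch through which a microRNA pairs with its targets. The sequences are from RefSeq (GRCm38.p6), at chr11:87756867-87756887 and chr11:87756903-87756925, plus strand. Whether transcripts of the eicosanoid genes carry matches to these seeds was not tested.
mmu-miR-142a-5p: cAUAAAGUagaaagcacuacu
mmu-miR-142a-3p: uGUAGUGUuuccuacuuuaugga

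The Mir142 probe set read 4.79 in ko CD8-equivalent and 4.92 in ko CD4-equivalent DCs, against 9.87 in wt CD8-equivalent and 10.37 in wt CD4-equivalent DCs. This checks the genotype labels only if the probes lie in the deleted part, which the labels do not give. Sort marker genes differed between the subsets in the direction of the sort. Sirpa, which encodes CD172a, read 9.67 in ko CD8-equivalent against 11.92 in ko CD4-equivalent DCs, and 9.69 in wt CD8-equivalent against 12.11 in wt CD4-equivalent DCs. Cd24a, the gene of CD24, separated the subsets less in ko. It read 12.72 in ko CD8-equivalent against 11.98 in ko CD4-equivalent DCs, and 12.76 in wt CD8-equivalent against 10.98 in wt CD4-equivalent DCs. In CD4-equivalent DCs, sorted as CD24low, its ko minus wt difference was 1.00. From 9774 to 9821 genes reached the floor on an array, a value of 5.68 set at the median over probe sets with 1 symbol, below which a value is treated as near background.

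Of the 9 measured eicosanoid genes, 8 reached the floor on at least 1 array. Ptger1, Ptger3, Ptger4, Ptgir, Alox5 and Alox5ap reached it on all 4 arrays, Ptgs2 on the 2 CD4-equivalent arrays and Ptger2 on 1. Ptges, which encodes the inducible synthase of prostaglandin E2, stayed below it on every array, at 4.51 in ko CD8-equivalent and 4.48 in ko CD4-equivalent DCs, against 4.43 in wt CD8-equivalent and 4.54 in wt CD4-equivalent DCs.

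**Figure D1:**
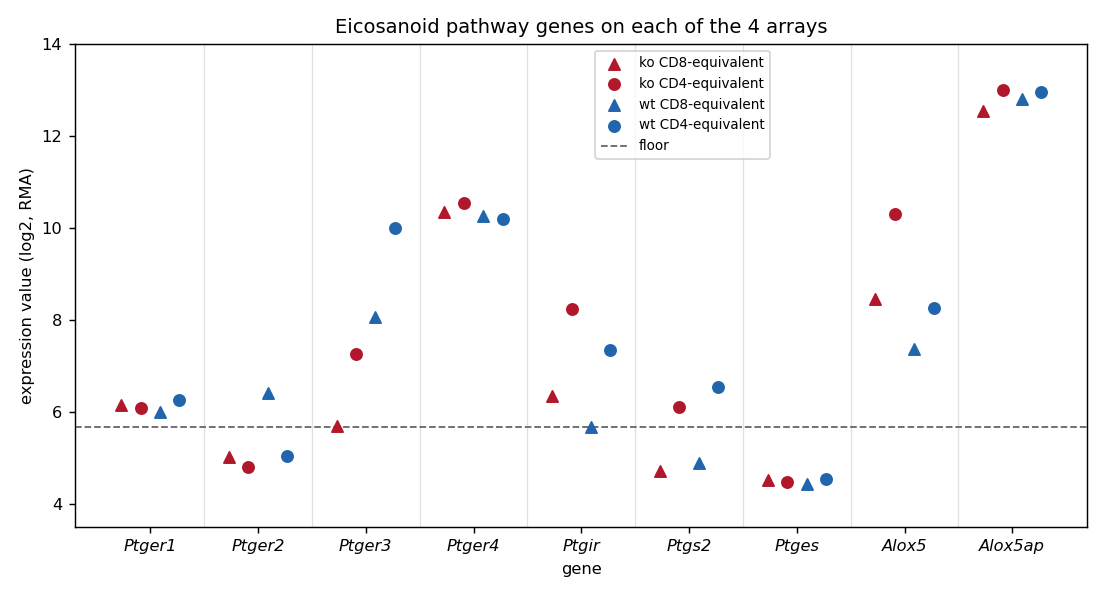
RMA values (log2, vertical axis) of the 9 measured eicosanoid genes (horizontal axis), with 1 point per array. Red marks ko and blue wt, triangles CD8-equivalent and circles CD4-equivalent DCs, and the dashed line is the floor of 5.68. Levels of different genes rest on different probes and are not comparable. Ptger3 is lower in both ko arrays than in both wt arrays, Alox5 is higher in both, and Ptger2 lies above the floor in wt CD8-equivalent DCs alone.

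Ptger3, the gene of the Gi-coupled EP3 receptor, was the eicosanoid gene with the widest spread over the arrays. It read 5.68 in ko CD8-equivalent and 7.26 in ko CD4-equivalent DCs, against 8.05 in wt CD8-equivalent and 9.99 in wt CD4-equivalent DCs. Both ko values lay below both wt values, the ko CD8-equivalent value was at the floor, and within each genotype the CD8-equivalent value was the lower one. Without miR-142 the level was 5.18-fold lower in CD8-equivalent DCs (log2 difference -2.37) and 6.66-fold lower in CD4-equivalent DCs (-2.74). Of all genes compared, 0.0702% had a lower ko minus wt difference in CD8-equivalent DCs and 0.0501% in CD4-equivalent DCs. In sorted bulk samples, fewer cells of a type and less RNA per cell cannot be told apart.

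Most of the macrophage markers compared were lower together with Ptger3 in ko CD8-equivalent DCs. Of the 8 monocyte and macrophage markers compared, 5 were at least 2-fold lower there in ko and 0 higher, where 1% and 1.14% of all genes were. The median log2 difference of the 8 was -1.35. Adgre1, C1qb and C1qc were below the floor in ko CD8-equivalent DCs and were compared only because their wt value reached it. The count and the median therefore favour lower values in ko. Csf1r was higher in ko (10.33 against 9.96 in wt CD8-equivalent DCs), and Fcgr1 hardly differed (5.84 against 5.89). Adgre1, the gene of F4/80, read 5.08 in ko and 8.09 in wt CD8-equivalent DCs, and the lysozyme gene Lyz2 read 11.31 in ko and 12.75 in wt. In CD4-equivalent DCs, where Ptger3 was also lower, 1 of the 8 markers was at least 2-fold lower (Adgre1) and 1 higher (C1qb), with a median of 0.07. Of all genes compared there, 0.952% were at least 2-fold lower and 1.39% higher. The mean over all 11 measured macrophage markers, which makes no such selection, was 6.88 in ko against 7.88 in wt CD8-equivalent DCs. In CD4-equivalent DCs it was 8.87 in ko against 8.88 in wt. Of 8 CD4-equivalent DC markers compared, 3 were at least 2-fold lower in ko CD4-equivalent DCs (Clec4a4, Ltb and Clec4a2) and 1 higher (Mgl2). Their median there was -0.36, and the ko value of Ltb was below the floor. In CD8-equivalent DCs 1 of these 8 was at least 2-fold lower in ko (Clec4a2) and 0 higher. The part of macrophages or of DC types in the differences of Ptger3 was not tested.

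The genotype difference common to both subsets was tested with limma, with terms for genotype and for subset, in the 10239 genes at or above the floor on at least 1 array, with Benjamini-Hochberg adjustment at 0.05. The model takes the 2 subsets as repeats of the genotype difference. Its p-values therefore rest on the gap between a gene's 2 genotype differences, combined with a spread estimated over all genes tested. That gap may be technical or a real difference between the subsets, and no spread between replicates is measured. Ptger3 fell by 2.55 ± 0.14 (SE) on the log2 scale (adjusted p = 0.0145) and was the only one of the 8 eicosanoid genes tested that was called, where 0.166% of all genes were called and 0.0586% were called lower. At an unadjusted p under 0.05, 4 of the 8 passed (Ptger3, Ptger2, Alox5 and Ptgir), as did 15.6% of all genes. Ptger2 entered the test only through the wt CD8-equivalent array, where it is high, and did not pass unadjusted with no floor. By size the difference of Ptger3 had rank 4 from the lowest of 10239. With no floor the adjusted p of Ptger3 was 0.0897 and the call was lost, and under the other 4 alternatives it ran from 0.00093 to 0.0148.

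None of the other prostaglandin E2 receptor genes was called for genotype, and differences between them and Ptger3 were not tested. Ptger4, the gene of the Gs-coupled EP4 receptor, read 10.35 in ko CD8-equivalent and 10.53 in ko CD4-equivalent DCs, against 10.25 in wt CD8-equivalent and 10.19 in wt CD4-equivalent DCs. Its ko values were the 2 highest, but the 4 arrays spanned only 0.34, and the genotype difference was 0.22 ± 0.13 (SE, adjusted p = 0.476). Ptger1, the gene of the calcium-linked EP1 receptor, read 6.14 in ko CD8-equivalent and 6.09 in ko CD4-equivalent DCs, against 5.99 in wt CD8-equivalent and 6.25 in wt CD4-equivalent DCs. These values overlap between the genotypes and lie close to the floor, and the fitted difference was -0.003 ± 0.14 (SE, adjusted p = 0.995). After cyclic loess it was 0.022.

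Ptger2, the gene of the other Gs-coupled receptor, EP2, was measured above the floor on a single array. It read 5.02 in ko CD8-equivalent and 4.81 in ko CD4-equivalent DCs, against 6.42 in wt CD8-equivalent and 5.04 in wt CD4-equivalent DCs. The wt CD8-equivalent value stands apart from the other 3, which all lie below the floor. Against the floor, the ko level in CD8-equivalent DCs was at least 1.67-fold lower (the measured log2 difference was -1.40), and the CD4-equivalent arrays, both below the floor, could not show a difference. In limma's additive fit the genotype difference did not pass (-0.81 ± 0.29 (SE), adjusted p = 0.286). The genotype difference in CD8-equivalent DCs minus that in CD4-equivalent DCs was -1.17, a value with no test, since it takes the last degree of freedom, and it rests on the 3 values below the floor.

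Ptgir, the gene of the Gs-coupled prostacyclin receptor IP, was higher in ko in each subset by less than 2-fold. It read 6.35 in ko CD8-equivalent and 8.23 in ko CD4-equivalent DCs, against 5.68 in wt CD8-equivalent and 7.34 in wt CD4-equivalent DCs. The subset outweighed the genotype here, and the ko CD8-equivalent value lay below the wt CD4-equivalent one. The differences were 0.67 in CD8-equivalent and 0.89 in CD4-equivalent DCs, with a fitted genotype difference of 0.78 ± 0.13 (SE, adjusted p = 0.0872), which missed the threshold. Under the alternatives the adjusted p ran from 0.0583 to 0.147.

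Among the enzymes, Alox5 was the one with the largest genotype difference. 5-lipoxygenase makes the unstable epoxide from which leukotriene B4 and the cysteinyl leukotrienes are formed. Alox5 read 8.45 in ko CD8-equivalent and 10.30 in ko CD4-equivalent DCs, against 7.37 in wt CD8-equivalent and 8.26 in wt CD4-equivalent DCs. Both ko values lay above both wt values, by a narrow margin between ko CD8-equivalent and wt CD4-equivalent DCs, and the ko CD4-equivalent value stood highest. The level was 2.12-fold higher in ko CD8-equivalent DCs (1.09) and 4.13-fold higher in ko CD4-equivalent DCs (2.05). Of all genes compared, 99.2% had a lower difference in CD8-equivalent and 99.8% in CD4-equivalent DCs.

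The fitted genotype difference of Alox5, 1.57 ± 0.24 (SE), ranked 23rd from the highest of 10239 but did not pass (adjusted p = 0.0815). It passed with the stricter floor (adjusted p = 0.0438) and under a trended, robust prior in limma (adjusted p = 0.0418), and not under the other 3 alternatives, where the adjusted p reached 0.194. The difference in CD8-equivalent DCs minus that in CD4-equivalent DCs was -0.96, again with no test.

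Neutrophils are a known source of 5-lipoxygenase, and many of their markers were higher where Alox5 was highest. Of 13 neutrophil markers compared in CD4-equivalent DCs, 10 stood 2-fold or more above wt in ko, where 1.39% of all genes compared did. Many of the 13 were compared only because their ko value reached the floor, such as Ngp (9.47 in ko, 5.61 in wt) and S100a9 (8.4 and 5.29). The count therefore favours higher values in ko. The mean over all 14 measured, which makes no such selection, was 7.54 in ko CD4-equivalent against 5.80 in wt CD4-equivalent DCs. Mmp8 (7.79 in ko, 8.48 in wt) and Csf3r (7.09 in ko, 7.83 in wt), the highest of the list in wt CD4-equivalent DCs, were lower in ko. In CD8-equivalent DCs the same mean was 5.30 in ko and 5.14 in wt. On those arrays S100a8 (5.22 in ko, 5.50 in wt), S100a9 (4.57 and 4.55), Ngp (5.28 and 5.19) and Lcn2 (5.50 and 5.64) lay below the floor on both arrays, while Alox5 was still 1.09 higher in ko. The list's members at the floor in CD8-equivalent DCs were 2 granule genes that progenitors also express. Mpo was at 7.55 in ko and 4.79 in wt CD8-equivalent DCs and at 7.02 in ko and 5.18 in wt CD4-equivalent DCs. Prtn3 was at 8.41 in ko and 8.04 in wt CD8-equivalent DCs and at 7.92 in ko and 6.70 in wt CD4-equivalent DCs.

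Many markers of other DC types were also higher in ko CD4-equivalent DCs. All 8 plasmacytoid DC markers lay above 0 there, as did 3608 of 9978 of all genes compared. Of the 8, 3 were at least 2-fold higher, and the list means were 9.25 in ko and 8.27 in wt. Pacsin1 and Ly6d were below the floor in wt and were compared only through their ko value. Of 8 CD8-equivalent DC markers compared, 3 were at least 2-fold higher (Clec9a, Cadm1 and Irf8), with a median of 0.74. Beside both lists, 1.39% of all genes compared were at least 2-fold higher. Batf3 (-0.04) and Wdfy4 (-0.29) were the 2 of the 8 that lay below 0. Cadm1 hardly separated the subsets in wt, with 7.36 in CD8-equivalent and 7.22 in CD4-equivalent DCs. Clec9a, a receptor gene of the CD8 type, read 10.85 in ko and 7.78 in wt CD4-equivalent DCs. The part of neutrophils or of these DC types in the differences of Alox5 was not tested.

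Alox5ap, which encodes the membrane protein that presents arachidonic acid to 5-lipoxygenase, did not share the pattern of Alox5. It read 12.54 in ko CD8-equivalent and 13.00 in ko CD4-equivalent DCs, against 12.81 in wt CD8-equivalent and 12.95 in wt CD4-equivalent DCs. The 4 arrays spanned 0.46, the genotypes overlapped, and the fitted difference was -0.11 ± 0.14 (SE, adjusted p = 0.764). Ptgs2, the inducible cyclooxygenase, read 4.72 in ko CD8-equivalent and 6.10 in ko CD4-equivalent DCs, against 4.88 in wt CD8-equivalent and 6.55 in wt CD4-equivalent DCs. Both CD8-equivalent values lay below the floor, and the ko value in CD4-equivalent DCs was 1.36-fold lower (-0.44). The fitted genotype difference of Ptgs2 was -0.30 ± 0.13 (SE, adjusted p = 0.367).

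**Figure D2:**
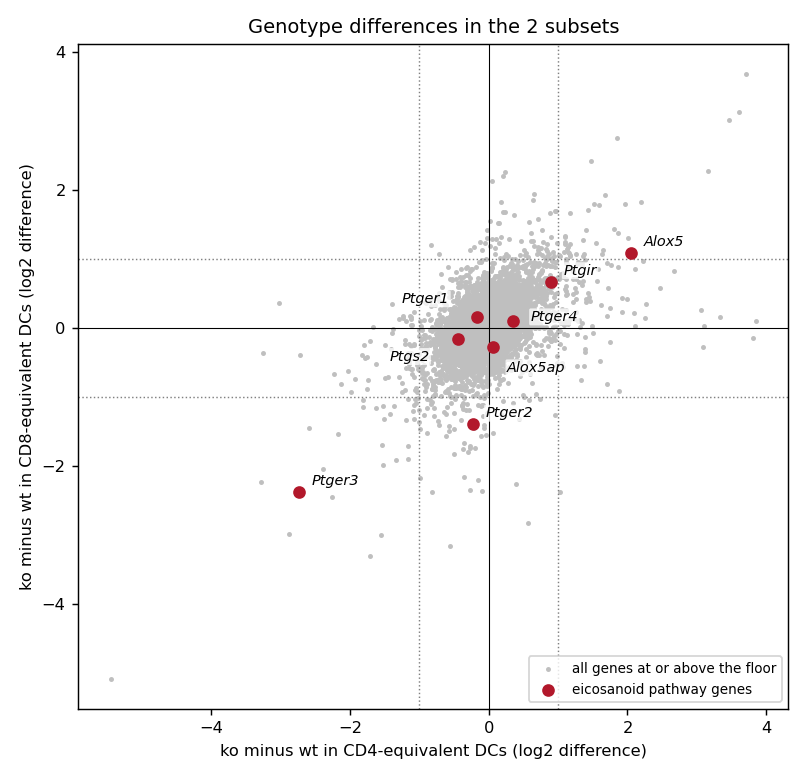
Log2 difference of ko minus wt in CD4-equivalent DCs (horizontal axis) and in CD8-equivalent DCs (vertical axis). Grey points are the 10239 genes at or above the floor on any array, red points the 8 eicosanoid genes among them, and dotted lines mark 2-fold. Ptger3 (-2.37 in CD8-equivalent and -2.74 in CD4-equivalent DCs) lies beyond 2-fold to the lower left and Alox5 (1.09 and 2.05) to the upper right, while Ptger2, whose ko values are below the floor, is beyond 2-fold on the vertical axis alone.

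By count, 1 of 7 eicosanoid genes compared was at least 2-fold higher in ko CD8-equivalent DCs (Alox5) and 2 were at least 2-fold lower (Ptger3, and Ptger2 by measured values), where 1.14% of all genes compared were higher and 1% lower. In CD4-equivalent DCs 1 of 7 was higher (Alox5) and 1 lower (Ptger3), against 1.39% and 0.952% of all genes. In both directions together, 2.15% of genes in CD8-equivalent and 2.35% in CD4-equivalent DCs were 2-fold apart. Ptger3 was at least 2-fold lower in ko in both subsets, as were 0.303% of all genes, and Alox5 at least 2-fold higher in both, as were 0.391%. The medians over the 7 genes were 0.10 in CD8-equivalent and 0.06 in CD4-equivalent DCs, beside 0.004 and -0.08 over all genes compared. For 4 of 8 genes both ko arrays lay beyond both wt arrays (Ptger4 and Alox5 above, Ptger2 and Ptger3 below), as they did for 27.9% of all genes, 9.79% above and 18.1% below. For Ptger2 this order rests on values below the floor, 5.02 in ko CD8-equivalent against 5.04 in wt CD4-equivalent DCs, and shows no separation. The split of all 2-fold calls in CD4-equivalent DCs was 59.4% higher as deposited and 70.1% higher after cyclic loess.

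The subsets were compared within each genotype, and 4 eicosanoid genes fell in CD8-equivalent relative to CD4-equivalent DCs. In limma's additive fit, Ptgir fell by 1.77 ± 0.13 (SE, adjusted p = 0.00467), Ptger3 by 1.76 ± 0.14 (SE, adjusted p = 0.00644), Ptgs2 by 1.52 ± 0.13 (SE, adjusted p = 0.00752) and Alox5 by 1.37 ± 0.24 (SE, adjusted p = 0.0288). The other 4 genes tested did not pass and 0 rose, where 14.3% of all genes were called, 7.98% higher and 6.35% lower. At an unadjusted p under 0.05, 4 were lower and 1, Ptger2, higher, and 33.3% of all genes passed. Ptger2 entered this test only through the wt CD8-equivalent array, where it is high. With no floor, 4 were lower and 0 higher at that threshold. Ptgs2 entered the test only through the CD4-equivalent arrays, where it is high, and without it 3 of 7 genes were called. With no floor, which makes no such selection, the adjusted p of Ptgs2 was 0.025. The call of Alox5 was lost with no floor (adjusted p = 0.0759).

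The pair of values behind each call came from both genotypes. For Ptger3 the CD8-equivalent value was 2.98-fold below the CD4-equivalent one in ko and 3.84-fold below it in wt. Ptgir was 3.70-fold lower in ko and 3.16-fold lower in wt. For Ptgs2, whose CD8-equivalent values were below the floor, the level was at least 1.34-fold lower in ko and at least 1.82-fold lower in wt. Alox5 was 3.60-fold lower in ko and 1.85-fold lower in wt. Ptgir, Ptgs2 and Alox5ap had both CD8-equivalent values below both CD4-equivalent values, as did 21.3% of all genes, while 37% had both above and 58.2% either. For Ptger3 and Alox5 the values of the subsets overlapped across genotypes.

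Ptger2 ran the other way in wt, where it was at least 1.67-fold higher in CD8-equivalent DCs against the floor, while in ko both values were below the floor. Its fitted subset difference did not pass (0.79 ± 0.29 (SE), adjusted p = 0.13). Ptger1, Ptger4 and Alox5ap differed between the subsets by -0.46 to 0.06 on the log2 scale in either genotype. At 2-fold, 0 of 7 eicosanoid genes compared were higher and 4 lower in ko, where 3.39% and 3.9% of all genes were (7.29% together), and 1 of 8 was higher and 3 lower in wt, where 2.1% and 3.14% of all genes were (5.24% together). These counts use measured values and include Ptgs2 and Ptger2 against arrays below the floor. The medians were -1.38 in ko and -0.57 in wt, beside 0.11 and 0.04 over all genes compared. Cyclic loess moved the median of all genes in ko from 0.11 to 0.0002 and the higher share of its 2-fold calls from 46.5% to 33.4%. After it, the ko differences of Ptger3, Ptgir and Alox5 were -1.75, -2.03 and -2.02, against -1.58, -1.89 and -1.85 as deposited.

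Most markers of other myeloid cells were also lower in CD8-equivalent DCs, as were the listed markers of CD4-equivalent DCs. Means over the 8 CD4-equivalent DC markers were 7.18 in ko CD8-equivalent against 9.42 in ko CD4-equivalent DCs. In wt they were 7.31 in CD8-equivalent against 9.78 in CD4-equivalent DCs. All 8 monocyte and macrophage markers that reached the floor lay below 0 in both genotypes. Of all genes compared, 3759 of 10118 did in ko and 4524 of 9998 in wt. In ko, Adgre1, C1qb and C1qc were below the floor in CD8-equivalent DCs and were compared only through their CD4-equivalent value. The list mean over 11 markers was 6.88 in ko CD8-equivalent against 8.87 in ko CD4-equivalent DCs. In wt it was 7.88 in CD8-equivalent against 8.88 in CD4-equivalent DCs. The neutrophil list mean was 5.30 in ko CD8-equivalent against 7.54 in ko CD4-equivalent DCs, and 5.14 in wt CD8-equivalent against 5.80 in wt CD4-equivalent DCs. Of these markers, 11 of 13 compared lay below 0 in ko and 4 of 5 in wt, beside 3759 of 10118 and 4524 of 9998 of all genes. Each of those below 0 was under the floor in CD8-equivalent DCs and was compared only because its CD4-equivalent value reached it. The counts therefore favour lower values in CD8-equivalent DCs, while the list means make no such selection. Mpo (7.55 against 7.02 in ko) and Prtn3 (8.41 against 7.92 in ko, 8.04 against 6.70 in wt) were higher in CD8-equivalent DCs. Only 5 of the 14 reached the floor on a wt array, so the wt means rest mostly on values below it. The plasmacytoid DC list had higher means in CD8-equivalent DCs, 10.27 against 9.25 in ko and 10.06 against 8.27 in wt. The part of these cells in the subset differences of Ptgir, Ptger3, Ptgs2 and Alox5 was not tested.

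Mast cells and basophils are known for prostaglandin and leukotriene synthesis and, in the case of mast cells, for EP3. Of 13 of their markers, 11 were below the floor on every array, with a highest value of 5.39, among them the IgE receptor genes Fcer1a and Ms4a2, Hdc, Gata2 and the proteases Mcpt8, Mcpt4 and Cma1. Cpa3, at 5.93 in ko CD8-equivalent and 5.66 in ko CD4-equivalent DCs against 4.90 in wt CD8-equivalent and 5.09 in wt CD4-equivalent DCs, reached it on 1 array, and Kit, which progenitors share, on all 4. Platelets are known for thromboxane, and of 6 of their markers 5 were below the floor everywhere. The remaining one, Ppbp, read 6.78 in ko and 5.66 in wt CD8-equivalent DCs, and 5.12 in ko and 5.22 in wt CD4-equivalent DCs. All 7 measured T and NK cell markers were below it on every array. For eosinophils 4 of 5 markers and for B cells 3 of 5 were below it on every array. The part of any of these cells in the values of the eicosanoid genes was not tested.

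**Figure D3:**
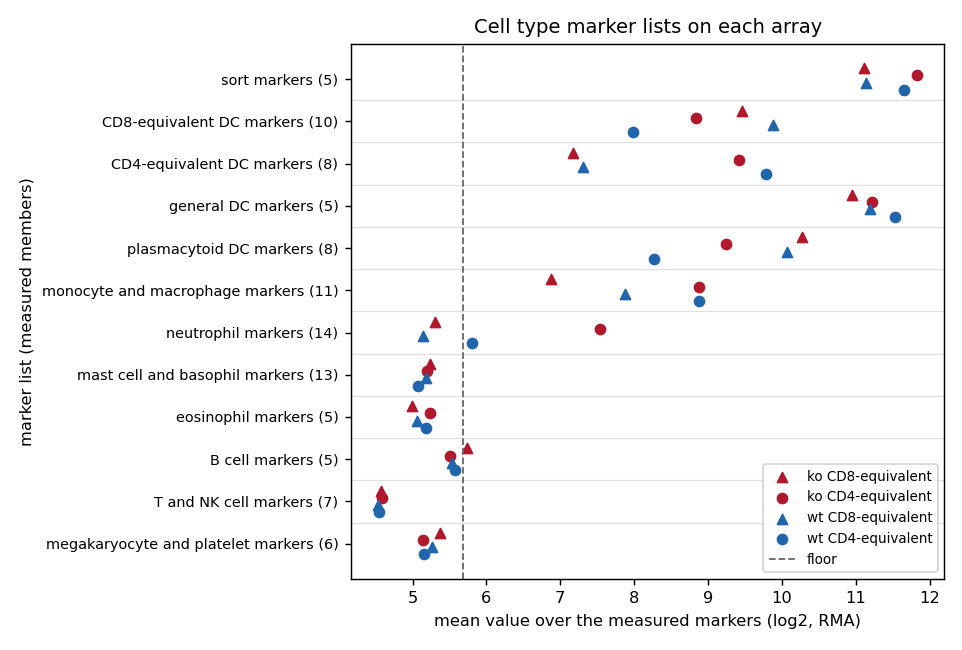
Mean RMA value (log2, horizontal axis) of each cell type marker list (vertical axis, with the number of measured markers) on each array. Red marks ko and blue wt, triangles CD8-equivalent and circles CD4-equivalent DCs, and the dashed line is the floor. The neutrophil list stands highest in ko CD4-equivalent DCs (7.54) and the macrophage list lowest in ko CD8-equivalent DCs (6.88).

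The starts of the 4 genes that fell in CD8-equivalent DCs are shown because they moved together across the subsets. Each is the RefSeq (GRCm38.p6) window from 250 bases before to 50 bases after the annotated start, written along the strand of the gene. Capitals mark matches on either strand to the GC box GGGCGG, the core of the PU-box GAGGAA, the core of the cAMP response element TGACGT and the E-box CACGTG. They are at chr3:157566626-157566925 (plus strand), chr7:16906240-16906539 (plus), chr1:150099781-150100080 (plus) and chr6:116461129-116461428 (minus).
Ptger3: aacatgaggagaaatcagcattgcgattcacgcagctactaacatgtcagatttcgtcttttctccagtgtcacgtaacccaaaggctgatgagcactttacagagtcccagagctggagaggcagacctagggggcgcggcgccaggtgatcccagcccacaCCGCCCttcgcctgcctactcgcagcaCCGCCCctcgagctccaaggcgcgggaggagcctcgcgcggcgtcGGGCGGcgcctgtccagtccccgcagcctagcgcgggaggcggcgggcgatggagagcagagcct
Ptgir: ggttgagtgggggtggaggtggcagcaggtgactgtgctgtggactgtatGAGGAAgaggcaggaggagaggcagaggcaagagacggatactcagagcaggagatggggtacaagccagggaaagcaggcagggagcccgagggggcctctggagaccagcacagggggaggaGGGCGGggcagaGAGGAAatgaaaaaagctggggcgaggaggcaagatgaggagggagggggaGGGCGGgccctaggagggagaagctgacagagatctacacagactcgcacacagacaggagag
Ptgs2: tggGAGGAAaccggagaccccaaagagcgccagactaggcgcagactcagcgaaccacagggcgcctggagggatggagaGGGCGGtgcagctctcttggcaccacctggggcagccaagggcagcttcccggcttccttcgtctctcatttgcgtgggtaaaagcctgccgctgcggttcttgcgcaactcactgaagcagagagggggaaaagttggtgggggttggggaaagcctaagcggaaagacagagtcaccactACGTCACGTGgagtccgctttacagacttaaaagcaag
Alox5: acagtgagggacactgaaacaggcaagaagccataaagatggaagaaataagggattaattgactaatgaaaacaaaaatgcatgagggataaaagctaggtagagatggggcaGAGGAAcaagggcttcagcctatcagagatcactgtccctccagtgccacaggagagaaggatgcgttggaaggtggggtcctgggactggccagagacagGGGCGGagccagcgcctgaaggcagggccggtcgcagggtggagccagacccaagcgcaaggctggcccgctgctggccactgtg

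Windows were found for 8 of the 10 eicosanoid genes, all but Ptger1 and Alox5ap. The GC box occurred in 6 of these 8 and in 35.7% of 32851 promoter windows, and the PU-box core in 5 of 8 and in 28.3%. Ptger3 held 3 GC boxes, Ptgir 2 GC boxes and 2 PU-box cores, and Alox5 and Ptgs2 1 of each. The cAMP element core and the E-box occurred in 1 of the 8 windows, that of Ptgs2, where they overlap, and in 7.51% and 7.15% of all windows. The window of Ptger4, whose level spanned 0.34 over the arrays, held 4 GC boxes. A match is a description of the letters in the window and says nothing of a bound factor.

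The genes around these receptors and enzymes came from lists of arachidonate release, prostanoid synthesis, other prostanoid receptors, prostanoid transport and breakdown, leukotriene enzymes, leukotriene receptors, and receptor coupling with cAMP. Of 79 such genes with a probe set, 51 reached the floor. In limma's genotype test 0 of the 51 were called, with Gna11 at the lowest adjusted p, and 16 passed at an unadjusted p under 0.05, 3 higher and 13 lower, where 15.6% of all genes passed. Under alternatives, 1 was called after cyclic loess (Gna11, higher), where 130 of all genes were called. With the stricter floor 3 were called of 141 in all, and under the trended, robust prior 6 of 307 in all. Gna11 was higher in both, and Abcc4 and Lpcat2 were lower in both, with Hpgds, Cysltr1 and Dpep2 lower under that prior alone. At 2-fold, 2 of 48 compared were higher and 1 lower in ko CD8-equivalent DCs, where 1.14% and 1% of all genes were, and 1 of 48 was higher and 4 lower in ko CD4-equivalent DCs, where 1.39% and 0.952% were. Medians over these genes were -0.02 and -0.09, close to the 0.004 and -0.08 of all genes.

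Among genes that handle arachidonic acid and prostanoids, the genotype differences at 2-fold were few. The thromboxane synthase gene Tbxas1 read 9.27 in ko CD8-equivalent and 9.34 in ko CD4-equivalent DCs, against 10.39 in wt CD8-equivalent and 9.43 in wt CD4-equivalent DCs. Its wt CD8-equivalent value stood above the other 3, and the difference was -1.11 in CD8-equivalent and -0.09 in CD4-equivalent DCs. Cbr3, a carbonyl reductase gene, was at 4.89 in ko CD4-equivalent against 6.05 in wt CD4-equivalent DCs, and reached the floor on that wt array alone. Below 2-fold and not called were Hpgds, the haematopoietic synthase of prostaglandin D2 (-0.94 in CD8-equivalent and -0.57 in CD4-equivalent DCs), the prostaglandin exporter gene Abcc4 (-0.86 and -0.77), the platelet-activating factor synthesis gene Lpcat2 (-0.76 and -0.77) and the platelet-activating factor hydrolase gene Pla2g7 (-0.64 and -0.94). Their adjusted p-values in the genotype test were 0.113 for Hpgds, 0.0743 for Abcc4, 0.079 for Lpcat2 and 0.0942 for Pla2g7.

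On the leukotriene side, 0 of the other enzyme and receptor genes tested were called for genotype by limma (5 of 9 at an unadjusted p under 0.05), where 0.166% of all genes were called and 15.6% passed unadjusted. The leukotriene B4 receptor gene Ltb4r1 read 5.78 in ko CD8-equivalent and 7.14 in ko CD4-equivalent DCs, against 6.38 in wt CD8-equivalent and 8.26 in wt CD4-equivalent DCs. Both ko minus wt differences were negative (-0.60 and -1.12), and the genotype test did not pass (adjusted p = 0.117). The cysteinyl leukotriene receptor gene Cysltr1 differed by -0.62 and -0.42, and Dpep2, which encodes a dipeptidase of cysteinyl leukotrienes, by -0.97 and -0.47 (adjusted p = 0.165 and 0.145). Ggt5, whose enzyme cleaves leukotriene C4, was 1.13 lower in ko CD4-equivalent DCs, while Cyp4f18, which in the mouse hydroxylates leukotriene B4, was higher in ko by 0.33 and 0.81 without passing (adjusted p = 0.208).

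Genes of receptor coupling differed in a few places. Gna11, a G protein subunit of the calcium-linked class used by EP1, read 10.37 in ko CD8-equivalent and 9.75 in ko CD4-equivalent DCs, against 9.15 in wt CD8-equivalent and 8.21 in wt CD4-equivalent DCs. Both ko values were above both wt values, by 1.23 and 1.54, yet the genotype test gave an adjusted p of 0.0533. The Gi subunit genes Gnai2 and Gnai3, through which EP3 acts, differed between ko and wt by -0.08 to -0.005 in either subset. The cAMP phosphodiesterase gene Pde3b was 1.78 lower in ko CD4-equivalent DCs (6.21 in ko against 7.99 in wt). Rapgef3, the gene of the cAMP sensor Epac, read 6.07 in ko CD8-equivalent against 4.78 in wt CD8-equivalent DCs and was below the floor on the CD4-equivalent arrays.

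Between the subsets, 14 of the 51 pathway genes fell in CD8-equivalent DCs and 3 rose in limma's test, where 6.35% of all genes fell and 7.98% rose. With no floor 9 were called lower and 2 higher, and with the stricter floor, which tests 25 of them, 9 lower and 1 higher. The adjusted p-values of those that fell ran from 0.00467 to 0.0466. Cyp4f18 fell by 2.21, the nuclear receptor gene Pparg by 1.81, Ltb4r1 by 1.62, Hpgd, whose enzyme inactivates prostaglandins, by 1.06 and Dpep2 by 1.05. Smaller falls were those of Daglb, a diacylglycerol lipase gene (-0.89), the glutathione transferase gene Mgst3 (-0.83), Lpcat2 (-0.82), Cysltr1 (-0.73), Hpgds (-0.64), Pla2g7 (-0.63), the arrestin gene Arrb2 (-0.60) and Abcc4 (-0.53). The thromboxane receptor gene Tbxa2r rose by 1.57, with 7.33 in ko CD8-equivalent against 5.69 in ko CD4-equivalent DCs and 7.23 in wt CD8-equivalent against 5.73 in wt CD4-equivalent DCs, and Gna11 rose by 0.78. Arrb1, which fell, and Cmklr1, which rose, complete the calls.

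**Figure D4:**
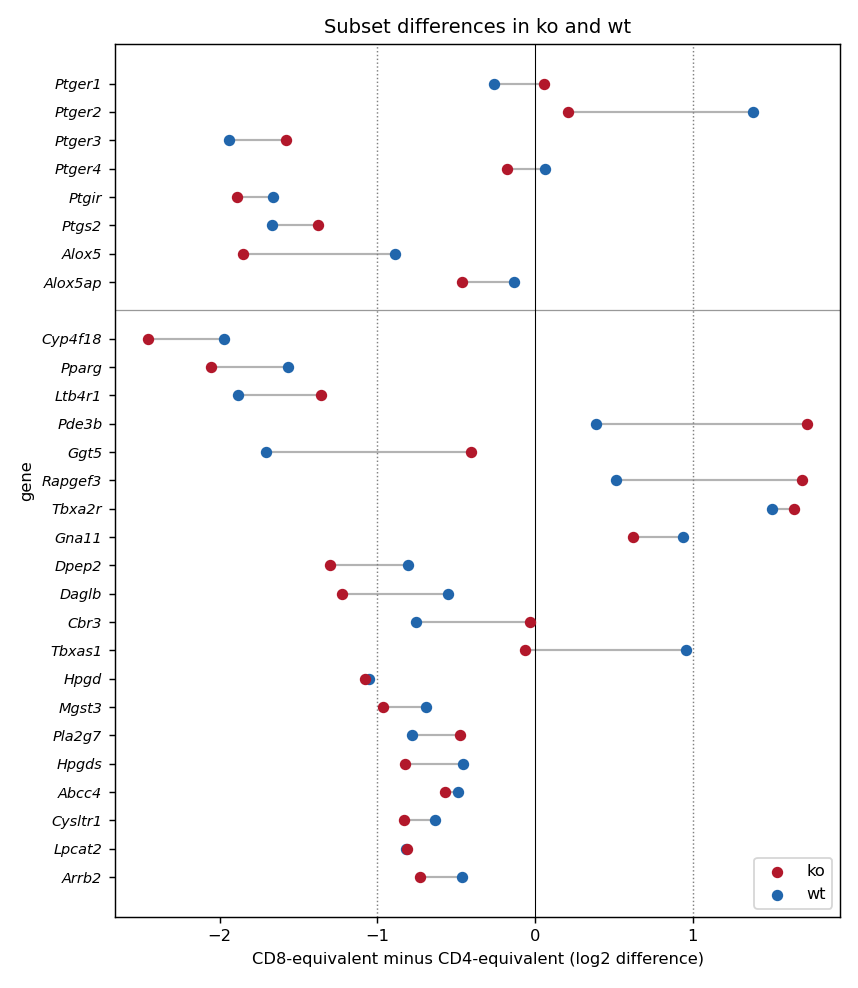
Log2 difference of CD8-equivalent minus CD4-equivalent DCs (horizontal axis) in ko (red) and wt (blue) for the 8 eicosanoid genes at or above the floor (upper block) and 20 further pathway genes (lower block). Dotted lines mark 2-fold. Ptger3, Ptgir and, by values below the floor, Ptgs2 lie beyond 2-fold to the left in both genotypes and Alox5 in ko alone, while Tbxa2r lies beyond 2-fold to the right in both.

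The genes whose profile over the 4 arrays was nearest to that of Ptger3 were B4galt6, Ahrr, Slc16a14, Nxpe5 and Ms4a4a, with Euclidean distances of 0.34, 0.67, 0.90, 1.10 and 1.15 between profiles centred on their mean. B4galt6, a lactosylceramide synthase gene, read 5.69 in ko CD8-equivalent and 7.53 in ko CD4-equivalent DCs, against 8.14 in wt CD8-equivalent and 9.78 in wt CD4-equivalent DCs. Ahrr, the gene of the aryl hydrocarbon receptor repressor, read 5.82 in ko CD8-equivalent and 6.82 in ko CD4-equivalent DCs, against 7.86 in wt CD8-equivalent and 9.21 in wt CD4-equivalent DCs. Of the eicosanoid and pathway genes, Ltb4r1 came nearest to Ptger3, at a distance of 1.70 and rank 29 of 10238 genes. With 4 arrays such a ranking is a description of these profiles.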

How the data were processed

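The authors deposited 1 log2 expression value per probe set and array, and RMA and Partek are named in the submitters' processing notes. RMA subtracts a modelled background, gives all arrays one distribution by quantile normalisation and summarises the probes of a probe set in log2 units. No source used here gives versions or later steps, and the log base was inferred from the values (3.52 to 14.3). No scanner values or detection calls were used, so scale and centring could not be set against them. Column medians were 5.94 (ko CD8-equivalent), 5.88 (ko CD4-equivalent), 5.87 (wt CD8-equivalent) and 5.91 (wt CD4-equivalent).

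Of 35399 probe sets, 21789 carried 1 symbol in the platform annotation of 2016, 1621 several and 11989 none here. Of those with 1 symbol, 21698 matched a RefSeq gene (GRCm38.p6) by gene ID. The probe set with the highest mean stood for each of 999 genes with several. Pairs of arrays were compared by subtraction where the higher value reached 5.68. Tests used limma 3.58.1 in R 4.3.3 (lmFit, eBayes, additive model, two-sided), with 1 residual and 3.98 prior degrees of freedom, and the fit was tested on simulated data. Alternatives were no floor, a floor at the 75th percentile (8.88), cyclic loess, limma's trended and robust prior, and the mean of a gene's probe sets.

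The 10 genes and all lists, written from textbook knowledge, were chosen with earlier results of these data known. The eicosanoid and pathway genes named are those 10, the 20 further pathway genes with the largest pairwise difference among 22 that differed by 2-fold or were called by limma, and the 5 nearest to Ptger3. Arrb1 and Cmklr1 fall outside this rule and were named after their values were seen, as were Gnai2, Gnai3, the single genes named from the marker lists and those nearest to Alox5 and Ptger2.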

Additional observations from a re-analysis of the deposited data

Results flagged for a closer look

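For 3 of the eicosanoid genes the same contrast had opposite signs in the 2 settings it was measured in, with 1 array on each side, and none of these differences was tested. Ptger1 differed between ko and wt by 0.16 in CD8-equivalent and by -0.16 in CD4-equivalent DCs, a gap of 0.32, and the same gap of 0.32 separates its subset difference in ko (0.05) from that in wt (-0.26). Alox5ap differed between ko and wt by -0.27 in CD8-equivalent and by 0.06 in CD4-equivalent DCs, a gap of -0.33. The subset difference of Ptger4 was -0.18 in ko and 0.06 in wt, a gap of -0.24. All these differences are well under 2-fold.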

How the results depend on the processing

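Limma called 17 of 10239 genes for genotype. The count was 3 with no floor, 141 with the stricter floor, 130 after cyclic loess and 307 with the trended and robust prior. Of the eicosanoid genes 1 was called, against 0 with no floor in limma (4 of 9 at an unadjusted p under 0.05), 2 with the stricter floor and 2 with that prior, where Alox5 joined Ptger3. The fit with no floor takes in genes near background, and the stricter floor leaves 4 eicosanoid genes in the fit. For the subset difference 1467 genes were called, against 946 with no floor, and 4 eicosanoid genes, against 2 with the stricter floor. With the stricter floor, which tests fewer genes, the genes at least 2-fold apart between ko and wt were 88 in place of 214 in CD8-equivalent and 102 in place of 234 in CD4-equivalent DCs. Between the subsets they were 353 in place of 738 in ko and 241 in place of 524 in wt. The genotype difference of Ptger1 was 0.022 after cyclic loess, against -0.003. No paired analysis was possible because each group holds 1 array and the labels give no replicate numbers. The additive fit already sets ko against wt within each subset. Leaving out an array leaves no residual degree of freedom, so it was not run.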

Other observations

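Chosen after their values were seen, the nearest profiles of 2 further eicosanoid genes were listed as a description of these 4 arrays. Nearest to Alox5 were Ly6a2 (Euclidean distance 0.12), the transcription factor gene Bhlhe40 (0.35), the integrin gene Itgb5 (0.58), Bcar3 (0.63) and Cd200r4 (0.64). Bhlhe40 read 7.95 in ko CD8-equivalent and 9.49 in ko CD4-equivalent DCs, against 7.04 in wt CD8-equivalent and 7.73 in wt CD4-equivalent DCs. Of the neutrophil genes, Ngp stood at rank 453, S100a8 at rank 652 and Lcn2 at rank 2513 of 10238 by distance to Alox5.

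Nearest to Ptger2 were Aldh1l2 (0.19), Adam8 (0.20), Ppfibp2 (0.21), Sult1a1 (0.22) and Cth (0.25). The metalloprotease gene Adam8 read 8.93 in ko CD8-equivalent and 8.59 in ko CD4-equivalent DCs, against 10.39 in wt CD8-equivalent and 9.09 in wt CD4-equivalent DCs, so that, as for Ptger2, the wt CD8-equivalent array stood highest. Itgae, which encodes the integrin CD103 of some CD8-type DCs, read 5.06 in ko CD8-equivalent and 4.78 in ko CD4-equivalent DCs, against 7.42 in wt CD8-equivalent and 4.87 in wt CD4-equivalent DCs, and stood at rank 358 by distance.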
